A study of Fragaria x ananassa with 9 samples.

Results

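Brassinosteroids are plant steroid hormones that drive cell elongation, and the genes that make, destroy and read them were followed here through petal development of the pink-flowered strawberry cultivar Sijihong. Unigenes (the longest transcript of each assembled cluster) were taken when the KEGG pathway column held brassinosteroid biosynthesis, or when a protein description named brassinosteroid, brassinazole, BRI1 or BES1/BZR1, and when at least 3 of the 9 libraries reached 1 TPM (an abundance scaled for transcript length and library total). This gave 70 of the 50285 unigenes: 50 came in by their pathway number, 20 by description and 0 by both. A further 3 matched but stayed under 1 TPM in too many libraries.

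The libraries came from RNA of petals at 3 stages of the same cultivar, with 3 biological replicates each: PF_L was the young bud, PF_Z the bud at the beginning of coloration, and PF_D the big bud. No treatment or mutant was involved. Pink-flowered cultivars descend from a cross of strawberry with marsh cinquefoil, so copies from related genomes may be merged or split among unigenes. In whole petals, fewer cells of a type and less RNA per cell cannot be told apart.

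In the textbook pathway, worked out mostly in Arabidopsis, plant sterols are turned into active brassinosteroid by the reductase DET2 and a chain of cytochrome P450 enzymes of the CYP90, CYP724 and CYP85 families, and P450s of the CYP734A family inactivate the hormone. The hormone is bound at the cell surface by the receptor kinase BRI1, which then pairs with the coreceptor BAK1, while BKI1 holds BRI1 inactive in the absence of hormone. Signaling shuts down the shaggy-type kinase BIN2 and so frees transcription factors of the BES1/BZR1 family, which switch growth genes on and off. The hormone is known for its role in the expansion of organs, petals among them.

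Gene names below are those of the best protein match, so a name stands for sequence likeness and not for a proven function in strawberry, and unigene identifiers are given without the word TRINITY. The names split the 70 unigenes into unlike groups. Only 26 are described as the enzymes, receptors and factors of the textbook pathway: 7 synthesis enzymes, 2 CYP734A enzymes, 6 BRI1-like receptors, 5 relatives of BAK1, 1 BKI1 and 5 BES1/BZR1 factors. Another 3 are relatives of BPG2, a chloroplast GTP-binding protein that Arabidopsis screens with the synthesis inhibitor brassinazole uncovered. The remaining 41 carry a number of the synthesis pathway but the name of another protein: 21 CYP749A22, 9 CYP72A and 1 CYP714C2 P450s share the number of CYP734A (33 unigenes with CYP734A1 itself), and 6 PRA1 proteins of membrane traffic, 3 CYP87A3 P450s and 1 polyprenol reductase share numbers of synthesis steps. None of the 70, nor of the 3 that matched under the TPM limit, was described as BRI1 itself. A BRI1 unigene under another name was not looked for. A brassinosteroid term appeared in the GO annotation of 18 of the 70. The unigenes came from 49 assembly clusters, 10 of which held 2 or more (31 unigenes), and 31 were shorter than 1000 bp (median 1092.5, range 206 to 2855 bp). Reads of near-identical copies could have been split among unigenes of a cluster, so single values there are uncertain.

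The 9 libraries summed to 993148 to 994911 TPM over the unigenes listed, and 37801 to 41396 unigenes per library reached 1 TPM. TPM holds no read counts, so counting error is unknown. PF_Z replicate 3 stood apart from replicates 1 and 2 on the second principal component of all tested unigenes (-24.9, against -100.0 and -107), on the side of the other stages. The petal identity genes named PMADS2 and FBP1, chosen after their values were seen because the list first fixed for petal identity matched 0 unigenes, summed to 2118 to 2233 TPM in PF_L, 1774 to 2198 TPM in PF_Z and 1677 to 1952 TPM in PF_D. Stamen and carpel AGAMOUS unigenes summed to 1.70 to 13.1 TPM over all libraries. The 8 pollen and anther unigenes summed to 111 to 125 TPM in PF_L, 90.1 to 125 TPM in PF_Z and 83.2 to 165 TPM in PF_D, with 4 called above and 3 below their PF_L levels in PF_D, and their part in the values that follow was not tested. Chlorophyll a-b binding proteins of green tissue summed to 4668 to 7239 TPM in PF_L, 1558 to 5678 TPM in PF_Z and 478 to 1838 TPM in PF_D.

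Of the 70 unigenes 44 were called in no comparison, and most calls among the others involved the big bud. Stages were compared with limma on log2(TPM + 1), over 47924 unigenes with at least 1 TPM in 3 libraries, and a unigene counted as called when its log2 fold change reached 1 or -1 with an adjusted p below 0.05. The added 1 makes fold changes of unigenes at a few TPM smaller. Between PF_D and PF_L, 22 of the 70 were called (31.4%), against 25.1% of all tested unigenes; 8 were higher in PF_D (9.38% of all tested were) and 14 lower (15.7% of all tested were). Between PF_Z and PF_L, 4 were called (5.71%), against 6.84% of all tested; 1 was higher (background 2.15%) and 3 lower (background 4.70%). Between PF_D and PF_Z, 13 were called (18.6%), against 18.0% of all tested; 4 were higher (background 8.89%) and 9 lower (background 9.07%). That split was 7 higher and 7 lower without PF_Z replicate 3, and likewise without PF_D replicate 1. Each share of called unigenes lay near that of all unigenes tested.

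The median log2 fold change of the 70 was -0.30 for PF_D against PF_L, -0.08 for PF_Z against PF_L and -0.16 for PF_D against PF_Z. Over all tested unigenes it was -0.12, -0.21 and 0.08 in the same order of comparisons. Scaling by median ratios moved the median of all tested unigenes by 0.11, 0.18 and -0.08. In at least 1 comparison 26 of the 70 were called (37.1%; 31.2% of all tested unigenes). Since libraries enter more than 1 comparison, these counts do not stand alone.

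**Figure D1:**
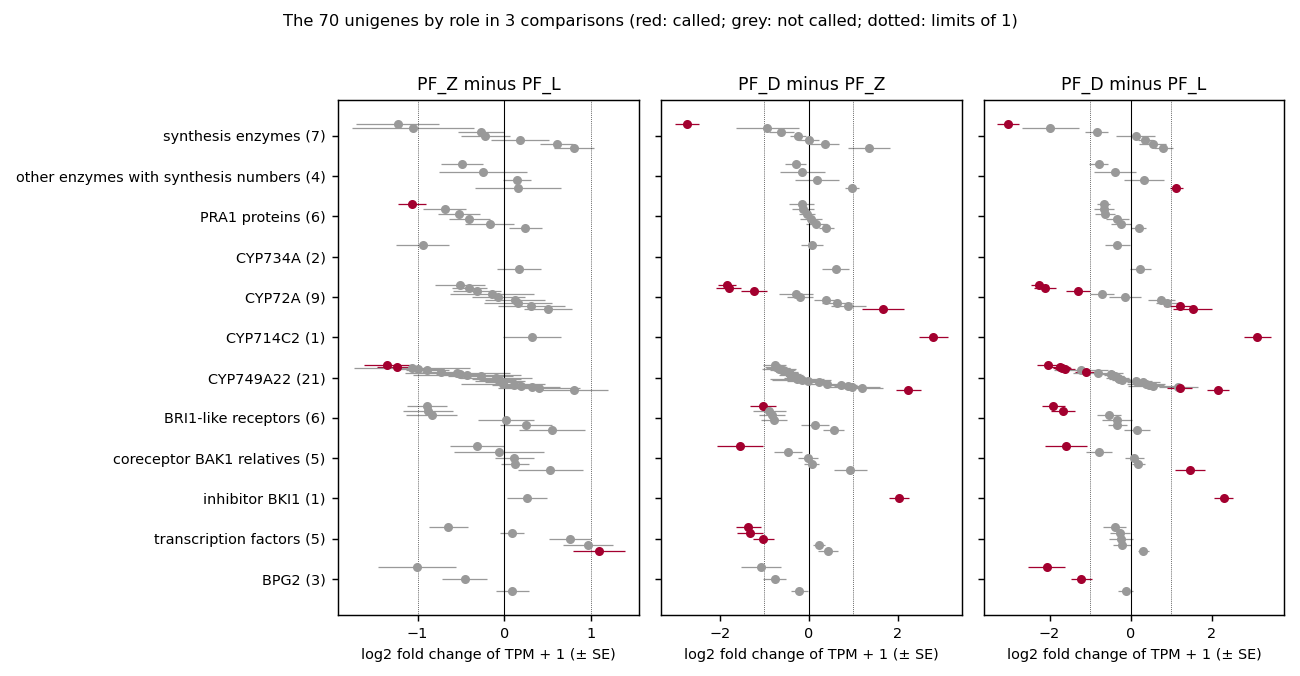
Log2 fold change of TPM + 1 (horizontal axis, ± SE, n = 3 libraries per stage) of each of the 70 unigenes, grouped by role with the number of unigenes in brackets, for PF_Z minus PF_L, PF_D minus PF_Z and PF_D minus PF_L; red points were called and dotted lines mark a fold change of 1 in either direction. CYP90D1 lies farthest left (-3.02) and CYP714C2 farthest right (3.12) for PF_D minus PF_L.

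Of the synthesis enzymes, 1 of 7 was called between PF_D and PF_L (14.3%, against 25.1% of all tested unigenes). That enzyme, CYP90D1, which in Arabidopsis hydroxylates the side chain of brassinosteroid precursors, was almost lost at the big bud. CYP90D1 (DN18789_c0_g1) had 14.4, 9.06 and 13.4 TPM in PF_L, 7.99, 8.76 and 13.4 TPM in PF_Z, and 0.52, 0.35 and 1.02 TPM in PF_D. All 3 PF_D libraries lay far below the 6 others, which overlapped each other. The log2 fold change was -3.02 (SE 0.27, adjusted p = 2.33e-05) for PF_D against PF_L and -2.75 (SE 0.27, adjusted p = 9.98e-05) for PF_D against PF_Z. Both calls held under each of the 19 alternatives run. In Arabidopsis, ROT3 catalyses the same hydroxylation, and its relative here (DN19503_c0_g1) did not share that fall. ROT3 had 3.40, 3.74 and 3.38 TPM in PF_L, 5.99, 5.51 and 5.98 TPM in PF_Z, and 5.13, 4.0 and 5.25 TPM in PF_D. Its fold change of PF_D against PF_L was 0.36 (SE 0.19, adjusted p = 0.172), and it was called in no comparison. The ratio of CYP90D1 to ROT3 TPM was 2.42 to 4.22 in PF_L, 1.33 to 2.24 in PF_Z and 0.0875 to 0.194 in PF_D, so ROT3 was the more abundant of the pair only in the big bud libraries.

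The entry and the late steps stayed expressed at every stage. CYP90B1 (DN18133_c0_g2), known as DWF4 and the early, rate-limiting side-chain hydroxylase, had 14.5, 14.1 and 13.1 TPM in PF_L, 12.2, 10.1 and 31.8 TPM in PF_Z, and 21.6, 20.2 and 20.1 TPM in PF_D. The PF_D libraries lay above all PF_L libraries, but the fold change was 0.54 (SE 0.33, adjusted p = 0.242). CYP90A1 (DN21032_c0_g1), known as CPD and also a P450 of the early steps, had 36.3, 29.6 and 37.6 TPM in PF_L, 52.5, 49.0 and 85.6 TPM in PF_Z, and 71.1, 47.3 and 65.8 TPM in PF_D. No PF_L library reached the level of a later stage, and the fold change was 0.80 for both PF_D and PF_Z against PF_L (SE 0.23 each, adjusted p = 0.0222 and 0.0576), under the fold limit. DET2 (DN17923_c1_g1), the steroid reductase, averaged 4.29 ± 0.73 TPM in PF_L, 3.61 ± 1.2 TPM in PF_Z and 2.02 ± 0.83 TPM in PF_D (SD, n = 3 each). Its fold change of PF_D against PF_L was -0.84 (SE 0.28, adjusted p = 0.0425), short of the fold limit, and it was -1.05 (SE 0.29, adjusted p = 0.0245) without PF_D replicate 1.

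CYP85A, the oxidase of the last steps to active hormone, was among the most abundant synthesis transcripts and differed more among PF_Z libraries than among the stage means. CYP85A (DN22005_c0_g2) had 71.2, 49.3 and 57.3 TPM in PF_L, 9.63, 24.8 and 58.9 TPM in PF_Z, and 61.7, 61.1 and 69.5 TPM in PF_D. PF_Z replicates 1 and 2 lay below every other library, while replicate 3 lay within the range of PF_L. With all libraries it was called in no comparison (PF_Z against PF_L -1.23, SE 0.48, adjusted p = 0.135). Without PF_Z replicate 3 it was lower in PF_Z than in PF_L (-1.85, SE 0.32, adjusted p = 0.00837) and higher in PF_D than in PF_Z (1.97, SE 0.32, adjusted p = 0.0025). CYP724B1, a synthesis P450 known from rice, was represented by a fragment of 236 bp (DN1247_c0_g1) listed at 0, 5.34 and 8.75 TPM in PF_L, 0.61, 0.59 and 1.72 TPM in PF_Z, and 0 in all 3 PF_D libraries, and was called in no comparison. It and 4 CYP749A22 unigenes (DN19367_c0_g10, DN15253_c0_g1, DN763_c0_g1 and DN1339_c0_g1) passed the limit of 1 TPM in exactly 3 libraries. Just outside it, CYP749A22 DN19367_c0_g11 and a BAK1-like fragment, DN15911_c1_g2, reached 1 TPM in 2 libraries and CYP734A6 DN18381_c0_g7 in 1 library. In all 9 libraries, 41 of the 70 reached 1 TPM.

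The summed TPM of the 7 synthesis enzymes averaged 132 ± 16 in PF_L, 132 ± 61 in PF_Z and 154 ± 16 in PF_D (SD, n = 3 each). Within PF_Z it was 91.6, 102 and 202 TPM, which exceeds the spread within either other stage.

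The inactivating branch was lowly expressed. CYP734A1, known as BAS1, had 2 unigenes. DN18872_c0_g1 had 4.68, 3.98 and 5.61 TPM in PF_L, 1.67, 1.32 and 3.27 TPM in PF_Z, and 5.21, 2.45 and 3.37 TPM in PF_D. All PF_Z libraries lay below all PF_L libraries, with a fold change of -0.94 (SE 0.31, adjusted p = 0.0844), and without PF_Z replicate 3 it was called lower (-1.20, SE 0.30, adjusted p = 0.0306). DN21423_c0_g2 lay between 1.23 and 2.32 TPM in every library. With limma, 0 of the 2 were called in any comparison, and at an unadjusted p under 0.05 there was 1 for PF_Z against PF_L and 0 for the other comparisons.

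**Figure D2:**
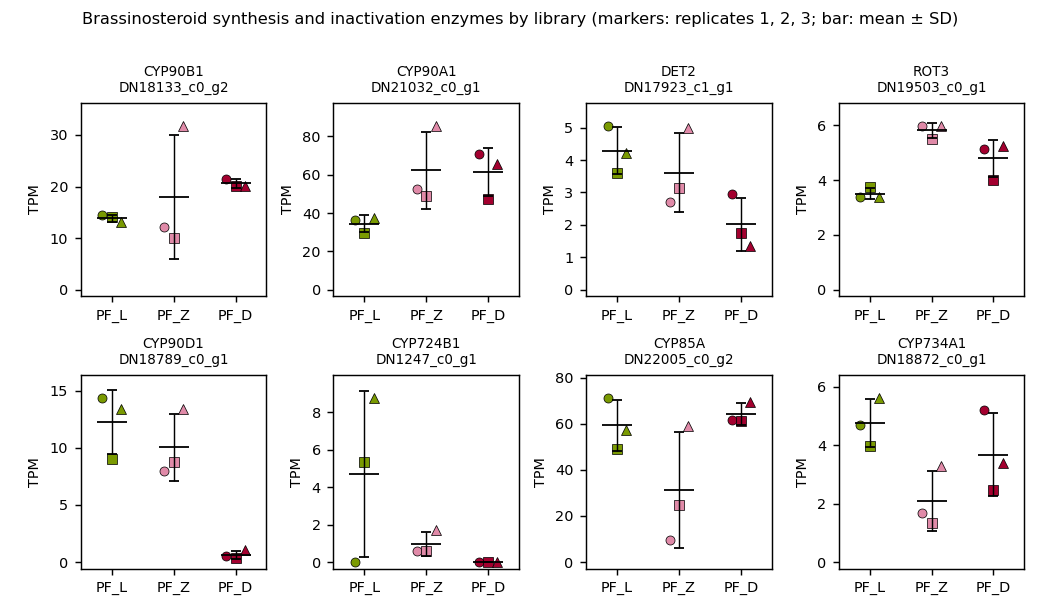
TPM (vertical axis) of 7 synthesis enzymes and of the more abundant CYP734A1 unigene in the 9 libraries, by stage; circles, squares and triangles are replicates 1, 2 and 3, and bars give mean ± SD. CYP90D1 falls to 1.02 TPM or less in PF_D, and PF_Z replicate 3 is the highest PF_Z library for CYP90B1 (31.8 TPM) and CYP85A (58.9 TPM).

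At the cell surface, both long BAK1 unigenes were called in no comparison, while 2 of the 6 BRI1-like receptors fell. Between PF_D and PF_L that is 33.3% called, against 25.1% of all tested unigenes. BAK1 was represented by DN15289_c0_g1, with 29.9, 29.4 and 35.0 TPM in PF_L, 34.7, 40.8 and 27.9 TPM in PF_Z, and 37.4, 32.8 and 37.0 TPM in PF_D, and by DN14056_c1_g1 at 17.5 to 30.8 TPM. The stages overlapped for both, with fold changes of PF_D against PF_L of 0.18 (SE 0.16, adjusted p = 0.422) and 0.09 (SE 0.22, adjusted p = 0.79). A BAK1 fragment of 206 bp (DN15911_c1_g3), which shares an assembly cluster with a BEH4 transcription factor, had 1.15, 5.66 and 0.98 TPM in PF_L, 0.85, 4.25 and 1.59 TPM in PF_Z, and was listed at 0 in PF_D. It was called lower in PF_D than in PF_L (adjusted p = 0.0349; 0.0763 without PF_D replicate 1) and than in PF_Z (adjusted p = 0.0493; 0.0741 without PF_Z replicate 3). The first call was lost without PF_L replicate 2 or any PF_D library, and the second without PF_L replicate 1 or 3, PF_Z replicate 2 or 3 or any PF_D library.

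Each of 2 further kinases has BAK1 in only 1 of its 2 descriptions. The NSP-interacting kinase NIK2 (DN14956_c0_g1), a receptor-like kinase with a role in defence against geminiviruses, had 0.68, 2.64 and 1.02 TPM in PF_L, 1.66, 1.62 and 4.32 TPM in PF_Z, and 4.79, 6.40 and 5.04 TPM in PF_D. All PF_D libraries exceeded all others, and the rise over PF_L was 1.46 (SE 0.37, adjusted p = 0.0115). PERK9 (DN20338_c1_g1), a proline-rich receptor-like kinase, lay at 3.33 to 9.85 TPM and was not called.

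Of the 6 BRI1-like unigenes, both that fell carry the name BRL2, a receptor-like kinase tied to vascular development in Arabidopsis. BRL2 DN18326_c0_g2 had 3.11, 2.88 and 2.57 TPM in PF_L, 0.62, 1.09 and 1.71 TPM in PF_Z, and 0.01, 0.03 and 0.03 TPM in PF_D. BRL2 DN22692_c0_g1 had 2.54, 1.98 and 2.20 TPM in PF_L, 0.53, 0.64 and 1.37 TPM in PF_Z, and 0, 0.03 and 0.03 TPM in PF_D. For both the stages were fully separated, in the order PF_L, PF_Z, PF_D. The fold changes of PF_D against PF_L were -1.91 (SE 0.29, adjusted p = 0.000658) and -1.66 (SE 0.29, adjusted p = 0.00166), which the added 1 limits at these levels. DN18326_c0_g2 was also lower in PF_D than in PF_Z (-1.03, SE 0.29, adjusted p = 0.0246), a call lost without PF_Z replicate 2 or 3 or PF_D replicate 2 or 3. Sieve element occlusion unigenes of phloem (9 unigenes) summed to 1214 to 1307 TPM in PF_L, 687 to 931 TPM in PF_Z and 281 to 615 TPM in PF_D. Of them 4 were called lower and 1 higher in PF_D than in PF_L, and their part in the BRL2 values was not tested.

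The remaining unigene named BRL2 is a piece of 354 bp (DN16544_c1_g1), and its second description is another receptor-like kinase, HSL1. This piece had 6.98, 7.55 and 6.20 TPM in PF_L, 2.60, 3.11 and 4.21 TPM in PF_Z, and 6.71, 5.38 and 4.05 TPM in PF_D, and did not follow the other pair. It was not called with all libraries, and without PF_Z replicate 3 it was lower in PF_Z than in PF_L (-1.04, SE 0.24, adjusted p = 0.0224). BRL1 and BRL3, which bind brassinosteroid in Arabidopsis, were detected at low levels. BRL1 (DN19155_c0_g2) averaged 2.11 ± 0.47 TPM in PF_L, 2.74 ± 0.95 TPM in PF_Z and 1.17 ± 0.48 TPM in PF_D. The BRL3 unigenes (DN19155_c0_g3 and DN18940_c1_g3) averaged between 1.32 and 3.31 TPM at each stage (n = 3 each). The second description of DN18940_c1_g3 is receptor-like protein 12, so its BRL3 name is uncertain. None of these 3 was called.

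BKI1, the inhibitor of BRI1, rose at the big bud. BKI1 (DN16428_c0_g1, 2139 bp) had 7.85, 4.35 and 5.51 TPM in PF_L, 5.97, 6.67 and 8.92 TPM in PF_Z, and 27.1, 34.1 and 35.7 TPM in PF_D. The PF_L and PF_Z libraries overlapped, and the lowest PF_D library was about 3 times the highest of them. The fold change was 2.29 (SE 0.23, adjusted p = 4.43e-05) for PF_D against PF_L and 2.03 (SE 0.23, adjusted p = 0.000206) for PF_D against PF_Z, and both calls held under all 19 alternatives. PF_Z against PF_L was 0.26 (SE 0.23, adjusted p = 0.494).

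The 5 BES1/BZR1 transcription factors, at 17.1 to 168 TPM, were among the most abundant of the 70 unigenes, and 3 of them had their highest levels at the beginning of coloration. All 5 carry the BES1_N domain. BEH4 (DN15911_c1_g1) had 51.1, 82.0 and 90.9 TPM in PF_L, 161, 168 and 106 TPM in PF_Z, and 63.5, 38.5 and 67.6 TPM in PF_D. The PF_Z libraries lay above all others, with replicate 3 nearest to them. PF_D against PF_Z was -1.36 (SE 0.28, adjusted p = 0.0062), which held under all 19 alternatives. PF_Z against PF_L was 0.96 (SE 0.28, adjusted p = 0.0601), and 1.17 (SE 0.29, adjusted p = 0.0304) without PF_Z replicate 3.

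BEH3 (DN24269_c0_g2) had 17.1, 27.7 and 33.2 TPM in PF_L, 73.9, 64.8 and 33.9 TPM in PF_Z, and 20.5, 21.1 and 22.1 TPM in PF_D. PF_Z replicate 3 lay just above the highest PF_L library. BEH3 fell by 1.32 on the log2 scale in PF_D against PF_Z (SE 0.30, adjusted p = 0.00912), under all 19 alternatives too. It was higher in PF_Z than in PF_L (1.09, SE 0.30, adjusted p = 0.0473), a call that held under 5 of 19 alternatives. Of the libraries, only PF_Z replicate 3 could be left out with that call kept (1.43, SE 0.24, adjusted p = 0.00724). A second BEH4 unigene (DN27528_c1_g2) had 23.2, 40.7 and 36.8 TPM in PF_L, 59.4, 63.2 and 46.3 TPM in PF_Z, and 31.2, 20.1 and 31.3 TPM in PF_D. It fell by 1.02 in PF_D against PF_Z (SE 0.24, adjusted p = 0.012), close to the fold limit, and the call was lost without PF_Z replicate 1, PF_Z replicate 2 or PF_D replicate 2.

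The other two factors went without a call. BEH2 (DN24269_c0_g1) had 115, 104 and 102 TPM in PF_L, 46.1, 71.6 and 95.3 TPM in PF_Z, and 90.6, 94.8 and 92.9 TPM in PF_D, so its lowest libraries were the PF_Z replicates with the highest BEH3. BEH2 and BEH3 share an assembly cluster, and a split of reads between them was not tested. The second description of BEH3 names a relative of BEH4. BZR2 (DN23787_c0_g3), whose second description is BRASSINAZOLE-RESISTANT 1, had 64.2, 69.1 and 67.2 TPM in PF_L, 67.6, 64.9 and 81.7 TPM in PF_Z, and 83.3, 76.0 and 90.9 TPM in PF_D, with a fold change of PF_D against PF_L of 0.31 (SE 0.14, adjusted p = 0.102). Between PF_D and PF_L limma called 0 of the 5 (25.1% of all tested unigenes), and 1 had an unadjusted p under 0.05. Between PF_Z and PF_L 1 of the 5 was called (20%, against 6.84% of all tested). Between PF_D and PF_Z 3 were called (60%, against 18.0% of all tested). BEH3 and the BEH4 pair made up 33.7, 46.5 and 48.8% of the TPM of the family in PF_L, 72.2, 68.5 and 51.3% in PF_Z, and 39.8, 31.8 and 39.7% in PF_D. The sum of the family was 271 to 330 TPM in PF_L, 363 to 433 TPM in PF_Z and 250 to 305 TPM in PF_D.

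**Figure D3:**
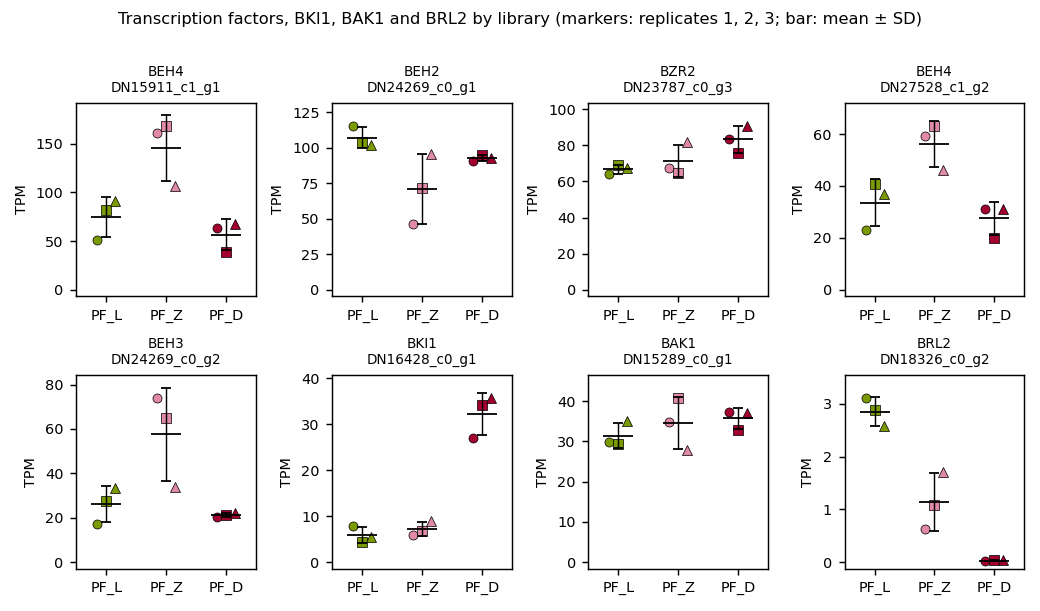
TPM (vertical axis) of the 5 BES1/BZR1 factors, BKI1, the most abundant BAK1 unigene and BRL2 DN18326_c0_g2 in the 9 libraries, by stage; circles, squares and triangles are replicates 1, 2 and 3, and bars give mean ± SD. BKI1 reaches 27.1 to 35.7 TPM in PF_D and at most 8.92 TPM before, and BEH3 and both BEH4 unigenes are highest in PF_Z.

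Of the 3 BPG2 unigenes, 2 fell between PF_L and PF_D (66.7% called, against 25.1% of all tested unigenes). In Arabidopsis BPG2 is needed for chloroplast development. Both that fell have putative nitric oxide synthase as second description, and the third an uncharacterized protein, so the BPG2 name is uncertain. DN17223_c0_g1 had 8.87, 8.18 and 9.02 TPM in PF_L, 1.41, 4.31 and 7.73 TPM in PF_Z, and 0.42, 1.67 and 2.21 TPM in PF_D. DN16070_c0_g1 had 4.50, 4.41 and 4.42 TPM in PF_L, 2.20, 2.87 and 4.02 TPM in PF_Z, and 0.84, 1.51 and 1.74 TPM in PF_D. For both, no PF_D library reached a PF_L library, and the fold changes were -2.07 (SE 0.45, adjusted p = 0.00518) and -1.22 (SE 0.26, adjusted p = 0.00466). The longest, DN19650_c0_g3, lay at 10.6 to 18.1 TPM and was not called (PF_D against PF_L -0.12, SE 0.19, adjusted p = 0.654). The chlorophyll a-b binding unigenes fell between the same stages, 24 of 28 called lower in PF_D than in PF_L and 0 higher, and their part in the BPG2 values was not tested. Within PF_Z the chlorophyll a-b binding sums were 5678, 3666 and 1558 TPM in replicates 1, 2 and 3. The BPG2 unigenes that fell were lowest there in replicate 1 and highest in replicate 3. The order of 3 libraries, with replicate 3 apart from the others, cannot decide the part of green tissue in the BPG2 values.

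The P450s that share a pathway number with CYP734A but carry other names held some of the largest levels and changes of the set. CYP72A15 (DN12274_c0_g2) had 132, 107 and 131 TPM in PF_L, 110, 89.7 and 80.4 TPM in PF_Z, and 32.6, 24.9 and 19.2 TPM in PF_D. CYP72A63 (DN26541_c0_g2), whose namesake in the legume Medicago truncatula oxidizes the triterpene beta-amyrin, had 136, 102 and 121 TPM in PF_L, 102, 108 and 78.7 TPM in PF_Z, and 43.4, 24.1 and 17.9 TPM in PF_D. For both, every PF_D library lay below every earlier one. The fold changes of PF_D against PF_L were -2.25 (SE 0.20, adjusted p = 2.49e-05) and -2.12 (SE 0.28, adjusted p = 0.000273), and those of PF_D against PF_Z -1.85 (SE 0.20, adjusted p = 0.000186) and -1.80 (SE 0.28, adjusted p = 0.00126). All 4 calls held under all 19 alternatives. These transcripts dominated the CYP72A group, whose summed TPM averaged 275 ± 37 in PF_L, 224 ± 31 in PF_Z and 99.2 ± 9.1 in PF_D (SD, n = 3 each).

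The smaller CYP72A unigenes moved both ways, some within 1 assembly cluster. CYP72A219 DN25141_c2_g4 had 9.10, 8.33 and 10.0 TPM in PF_L, 12.7, 7.56 and 6.62 TPM in PF_Z, and 1.67, 4.25 and 3.92 TPM in PF_D, and fell by 1.3 against PF_L and 1.23 against PF_Z (SE 0.30 each, adjusted p = 0.00761 and 0.0138). Without PF_D replicate 1 the first was -0.99 and no longer called, and the second was lost without that library or PF_Z replicate 1. CYP72A219 DN25141_c2_g3 had 4.66, 0.95 and 1.87 TPM in PF_L, 2.94, 1.82 and 4.41 TPM in PF_Z, and 5.74, 7.33 and 5.89 TPM in PF_D, and was higher in PF_D than in PF_L (1.20, SE 0.39, adjusted p = 0.0344), a call lost without PF_L replicate 2 or 3 or any PF_D library. The fragment DN19367_c0_g9 of 221 bp, with 0 to 1.97 TPM before and 2.49 to 6.23 TPM in PF_D, was higher in PF_D than in PF_L (1.53, adjusted p = 0.0317) and than in PF_Z (1.67, adjusted p = 0.0272). This fragment has CYP749A22 as second description and shares an assembly cluster with CYP749A22 unigenes, so its CYP72A219 name is uncertain. The first of its calls was lost without PF_L replicate 2 or 3, the second without PF_Z replicate 2 or 3, and either without PF_D replicate 2 or 3.

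PF_D replicate 1 was the highest PF_D library for some of this group, CYP72A63 and CYP72A15 DN12274_c0_g2 among them, and the lowest for others. CYP72A15 DN25141_c2_g7 had 9.49, 25.9 and 22.9 TPM in PF_D, and CYP72A219 DN12274_c0_g1 had 5.73, 12.3 and 10.7 TPM there. Neither was called with all libraries, and both were called higher than in PF_L without PF_D replicate 1 (1.18, SE 0.25, adjusted p = 0.00756, and 1.20, SE 0.23, adjusted p = 0.00498). The total of called unigenes between PF_D and PF_L was 22 without that library as with it. CYP72A219 DN25141_c2_g1 and CYP72A154 DN25141_c2_g8 stayed at 0.45 to 3.10 TPM and were not called.

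CYP714C2 (DN22650_c1_g2) showed the largest rise of the 70. Members of the CYP714 family are known for gibberellin oxidation in rice and Arabidopsis. It had 4.94, 1.44 and 3.94 TPM in PF_L, 4.81, 4.0 and 3.75 TPM in PF_Z, and 29.2, 49.6 and 30.1 TPM in PF_D. The PF_D libraries lay far above the others, which overlapped. The fold change was 3.12 (SE 0.33, adjusted p = 6.79e-05) for PF_D against PF_L and 2.81 (SE 0.33, adjusted p = 0.000274) for PF_D against PF_Z, under all 19 alternatives.

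The 21 CYP749A22 unigenes, named after a ginseng P450, came from 11 assembly clusters and split in direction. Between PF_D and PF_L 5 fell, 2 rose and 14 were not called (33.3% called, against 25.1% of all tested unigenes). The clearest falls were DN15253_c1_g1, with 9.66, 9.24 and 9.13 TPM in PF_L, 4.06, 2.01 and 3.37 TPM in PF_Z, and 0.92, 2.06 and 1.67 TPM in PF_D, and DN23821_c2_g1, with 8.45 to 9.34 TPM in PF_L, 2.63 to 4.23 TPM in PF_Z and 1.56 to 2.44 TPM in PF_D. Both were lower already in PF_Z than in PF_L, by -1.35 (SE 0.26, adjusted p = 0.0129) and -1.24 (SE 0.22, adjusted p = 0.0094), and reached -2.05 (SE 0.26, adjusted p = 0.000247) and -1.69 (SE 0.22, adjusted p = 0.00029) in PF_D against PF_L. For DN15253_c1_g1 the call of PF_Z against PF_L was lost without PF_L replicate 1 or 3. DN15438_c0_g2 (4.66, 1.89 and 0.68 TPM on average in PF_L, PF_Z and PF_D), DN16416_c1_g2 (3.99, 1.68 and 0.603 TPM) and DN16416_c1_g3 (1.69, 0.873 and 0.247 TPM) fell likewise in PF_D against PF_L, by 1.75, 1.63 and 1.09. The last of these calls was lost without PF_L replicate 3, and without PF_Z replicate 3 DN15438_c0_g2 was also called lower in PF_Z than in PF_L (-1.07, SE 0.29, adjusted p = 0.0387).

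Both that rose belong to cluster DN19367_c0. DN19367_c0_g10 had 0.55, 0.18 and 0.43 TPM in PF_L, 0.42, 0.40 and 0.09 TPM in PF_Z, and 5.53, 5.87 and 4.12 TPM in PF_D. It was thus expressed above 1 TPM only in PF_D, with fold changes of 2.15 (SE 0.28, adjusted p = 0.000256) against PF_L and 2.24 (SE 0.28, adjusted p = 0.00038) against PF_Z. Because that unigene passed the limit of 1 TPM through PF_D alone, it was bound to differ. DN19367_c0_g7 had 0.36 to 0.52 TPM in PF_L, 0.21 to 1.28 TPM in PF_Z and 2.07 to 2.64 TPM in PF_D (1.21 against PF_L, SE 0.31, adjusted p = 0.0133). The most abundant CYP749A22 unigenes were not called. DN23821_c2_g2 had 18.3, 23.6 and 14.7 TPM in PF_L, 14.5, 14.1 and 24.7 TPM in PF_Z, and 10.4, 35.6 and 33.3 TPM in PF_D, and DN19367_c0_g1 had 10.2, 12.03 and 10.4 TPM in PF_L, 7.70, 7.72 and 11.4 TPM in PF_Z, and 6.84, 22.7 and 21.3 TPM in PF_D. In both PF_D replicate 1 was the lowest of the 9 libraries and replicates 2 and 3 the highest. The other 12 uncalled unigenes (DN16416_c1_g1, DN15401_c0_g2, DN19367_c0_g5, DN23821_c2_g6, DN19430_c0_g1, DN14496_c0_g3, DN23821_c2_g3, DN19367_c0_g8, DN15253_c0_g1, DN763_c0_g1, DN1339_c0_g1 and DN19367_c0_g4) had 0 to 15.5 TPM in single libraries. The summed TPM of the 21 averaged 106 ± 3.9 in PF_L, 84.5 ± 12.4 in PF_Z and 93.0 ± 24.2 in PF_D (SD, n = 3 each).

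**Figure D4:**
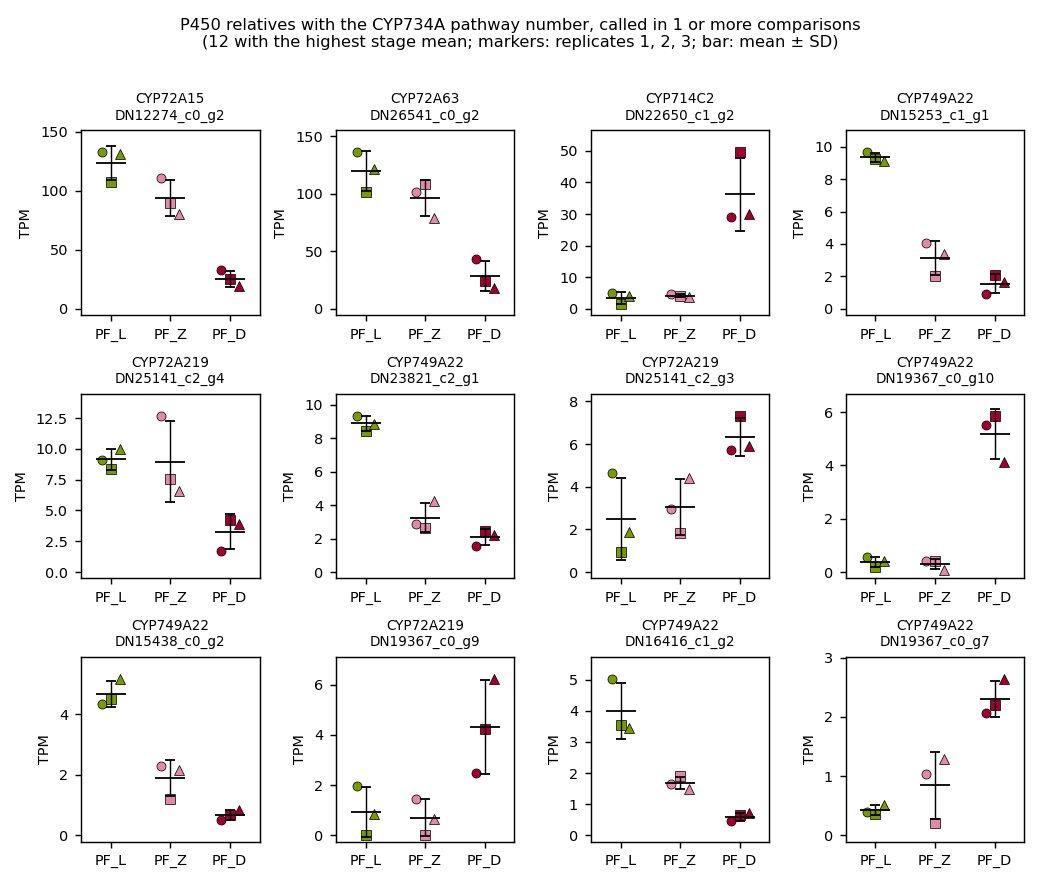
TPM (vertical axis) of CYP72A, CYP714C2 and CYP749A22 unigenes called in at least 1 comparison (the 12 with the highest stage mean) in the 9 libraries, by stage; circles, squares and triangles are replicates 1, 2 and 3, and bars give mean ± SD. CYP72A15 and CYP72A63 are lowest in PF_D, CYP714C2 reaches 29.2 to 49.6 TPM there, and 2 CYP72A219 unigenes of cluster DN25141_c2 move in opposite directions.

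Among proteins that share a number with synthesis enzymes, polyprenol reductase (DN18947_c0_g1), which acts in dolichol formation and, like DET2, carries the steroid reductase domain, had 10.9, 10.96 and 10.2 TPM in PF_L, 12, 10.1 and 13.8 TPM in PF_Z, and 21.9, 27.5 and 24.2 TPM in PF_D. It was higher in PF_D than in PF_L (1.12, SE 0.16, adjusted p = 0.000472), and against PF_Z it missed the fold limit with 0.98 (SE 0.16, adjusted p = 0.00178), a limit it passed without PF_Z replicate 3 (1.08, SE 0.16, adjusted p = 0.00153). The CYP87A3 unigenes (DN11297_c0_g1, DN11297_c0_g2 and DN11869_c0_g2), at 0 to 4.57 TPM, were not called. PRA1E DN23282_c2_g2, a protein of vesicle traffic, had 59.6, 71.0 and 58.4 TPM in PF_L, 28.6, 25.8 and 34.5 TPM in PF_Z, and 43.1, 41.5 and 33.5 TPM in PF_D. It was lower in PF_Z than in PF_L (-1.07, SE 0.16, adjusted p = 0.00378), a call lost under both other scalings and without PF_L replicate 2 or PF_Z replicate 2. The other 5 PRA1 unigenes (PRA1F2 DN23282_c1_g1 and DN23282_c0_g1, PRA1D DN23282_c2_g1, PRA1F3 DN16860_c2_g3 and PRA1E DN18016_c0_g5) lay at 2.90 to 53.6 TPM and were not called.

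The PF_Z stage rested on 1 library more than the others. For 37 of the 70 unigenes PF_Z replicate 3 was above both other PF_Z libraries, for 17 below both and for 16 between or level. Without it, 10 unigenes were called between PF_Z and PF_L, 2 higher and 8 lower (14.3%, against 9.85% of all tested unigenes), and all 4 of the calls made with it were among them. The additions were CYP85A, CYP734A1 DN18872_c0_g1, BRL2 DN18326_c0_g2 (-1.06, SE 0.31, adjusted p = 0.0489) and DN16544_c1_g1, CYP749A22 DN15438_c0_g2 and BEH4 DN15911_c1_g1. Between PF_D and PF_Z, leaving out that library added 4 calls of higher levels in PF_D, for CYP85A, polyprenol reductase DN18947_c0_g1, NIK2 DN14956_c0_g1 (1.27, SE 0.35, adjusted p = 0.0256) and CYP749A22 DN19367_c0_g7 (1.07, SE 0.34, adjusted p = 0.0433). It ended 3 calls there, for BRL2 DN18326_c0_g2, CYP72A219 DN19367_c0_g9 and the BAK1 fragment DN15911_c1_g3. For PF_Z against PF_L, leaving out PF_L replicate 2, PF_L replicate 3 or PF_Z replicate 2 left 2 calls each.

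**Figure D5:**
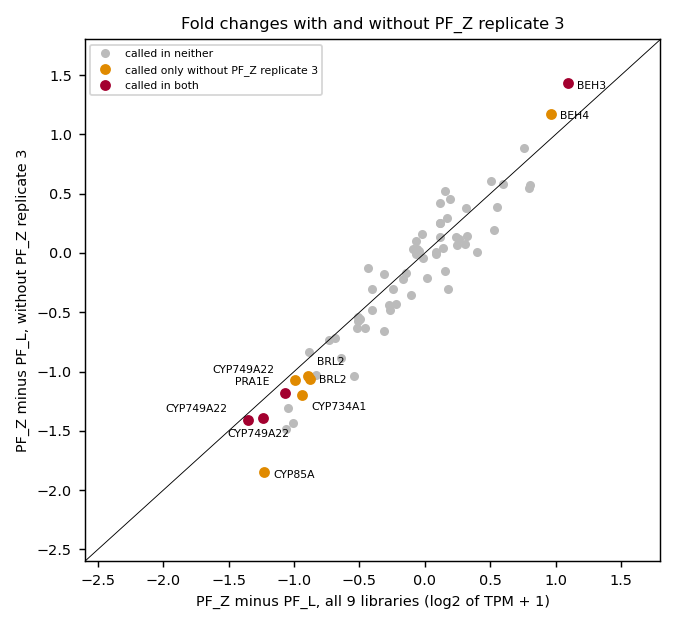
Log2 fold change of TPM + 1 in PF_Z minus PF_L for each of the 70 unigenes with all 9 libraries (horizontal axis) and without PF_Z replicate 3 (vertical axis); the line marks equal values. CYP85A lies farthest below the line among the named points, at -1.23 with and -1.85 without that library.

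Further genes of the pathway outside the 70 were taken by list: sterol precursor enzymes by KEGG number, and SERK coreceptors, shaggy-type (GSK3) kinases, BSK kinases, BSU1-family phosphatases, 14-3-3 proteins and growth-regulating bHLH factors by description. Of 141 such unigenes 136 were tested. In PF_D 15 were higher and 26 lower than in PF_L, which is 30.1% called against 25.1% of all tested unigenes (median -0.07, against -0.12). In PF_Z 6 were higher and 3 lower than in PF_L, which is 6.62% called against 6.84% (median -0.10, against -0.21), and without PF_Z replicate 1 or PF_Z replicate 2 only 5 calls were left. Compared with PF_Z, 13 were higher and 26 lower in PF_D, which is 28.7% called against 18.0% (median 0.03, against 0.08). With median ratio scaling the split was 20 higher and 21 lower between PF_D and PF_L, and 7 and 0 between PF_Z and PF_L.

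The kinase BIN2, the central brake of the pathway, is matched by ASK7 (shaggy-related kinase eta, DN25840_c0_g1), which had 123, 86.4 and 103 TPM in PF_L, 74.2, 79.4 and 112 TPM in PF_Z, and 241, 281 and 251 TPM in PF_D. All PF_D libraries exceeded all others, and ASK7 was higher in PF_D than in PF_L (1.31, SE 0.19, adjusted p = 0.000489) and than in PF_Z (1.55, SE 0.19, adjusted p = 0.000333). Of the 11 tested kinases of its family, only ASK7 rose between PF_D and PF_L, and both ASK5 unigenes (DN24174_c0_g2 and DN17408_c0_g2, averages of 26.5, 14.3 and 5.68 TPM and of 52.4, 29.5 and 10.7 TPM in PF_L, PF_Z and PF_D) fell, by 2.06 and 2.21. ASK1 (DN25811_c0_g1) and NTK-1 (DN17828_c0_g1) were lower in PF_Z than in PF_L (-1.17 and -1.20, neither called with median ratio scaling) and higher in PF_D than in PF_Z (1.45 and 1.32). Of the 11, 27.3% were called between PF_D and PF_L, against 25.1% of all tested unigenes. For PF_D against PF_Z the share was 63.6%, against 18.0%. Between PF_D and PF_Z 3 of the 11 were higher (ASK7, ASK1 and NTK-1 DN17828_c0_g1) and 4 lower, both ASK5 unigenes among them (-1.21 and -1.39). The other two were NTK-1 DN25811_c0_g2, from the assembly cluster of ASK1, with 31.4, 27.7 and 37.7 TPM in PF_D against 105, 149 and 38.3 TPM in PF_Z (-1.37, SE 0.45, adjusted p = 0.0461), and MSK-3 DN21464_c0_g1, with 21.6, 22.9 and 31.7 TPM in PF_D against 81.7, 103 and 28.5 TPM in PF_Z (-1.28, SE 0.42, adjusted p = 0.0462). Both of these calls were lost under 13 of 19 alternatives, among them the omission of PF_L replicate 2 or 3, PF_Z replicate 1 or 2 or any PF_D library.

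Of 14 BSK kinases, which pass the signal on from BRI1, 6 fell and 0 rose between PF_D and PF_L (42.9% called, against 25.1% of all tested unigenes). Of the 6, 4 are pieces of 1 assembly cluster (DN25078_c1). The call of DN25078_c1_g3 was lost without PF_L replicate 1 and under both other scalings, and that of DN17724_c0_g1 (adjusted p = 0.0454) under 12 of 19 alternatives, among them the omission of PF_L replicate 2 or 3, PF_Z replicate 1 or any PF_D library. DN25078_c1_g2 (named At4g35230), for instance, had 5.89 to 7.08 TPM in PF_D against 20.8 to 30.0 TPM in PF_L (-1.77, SE 0.17, adjusted p = 3.47e-05). Of 4 phosphatases of the BSU1 family, which inactivate BIN2, 2 rose between PF_D and PF_L (50% called, against 25.1% of all tested unigenes). Both carry the name BSL1 and come from 1 assembly cluster (DN26970_c0). DN26970_c0_g1 had 38.5 to 39.5 TPM in PF_D against 12.7 to 14.7 TPM in PF_L (1.46, SE 0.13, adjusted p = 1.96e-05), and DN26970_c0_g6 had 44.0 to 48.7 TPM against 19.3 to 20.0 TPM (1.21, SE 0.14, adjusted p = 9.49e-05). The 5 SERK unigenes, kin of BAK1 and led by SERK2 DN21198_c0_g1 (171, 184 and 130 TPM on average in PF_L, PF_Z and PF_D), had 0 calls with limma in any comparison, with 1, 1 and 3 at an unadjusted p under 0.05 for PF_D against PF_L, PF_Z against PF_L and PF_D against PF_Z. Of all tested unigenes 25.1%, 6.84% and 18.0% were called in the same order of comparisons.

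Of 10 tested 14-3-3 proteins, which hold phosphorylated BZR1 in the cytoplasm, only TFT7 (DN14020_c1_g2) was called. That is 10% in each comparison. Of all tested unigenes it was 25.1% for PF_D against PF_L, 6.84% for PF_Z against PF_L and 18.0% for PF_D against PF_Z. TFT7 had 4.87, 3.76 and 4.40 TPM in PF_L, 49.5, 29.6 and 31.5 TPM in PF_Z, and 99.1, 95.6 and 94.0 TPM in PF_D, with no overlap between stages, and rose in each comparison (PF_D against PF_L 4.19, SE 0.19, adjusted p = 4.66e-07). Of 6 growth bHLH factors, 4 rose and 1 fell between PF_D and PF_L (83.3% called, against 25.1% of all tested unigenes). PRE6 (DN17989_c0_g1), of the PRE family that promotes cell elongation downstream of brassinosteroid and gibberellin, had 1.31, 0.85 and 0.87 TPM in PF_L, 2.33, 3.72 and 5.16 TPM in PF_Z, and 297, 255 and 276 TPM in PF_D (PF_D against PF_L 7.11, SE 0.22, adjusted p = 7.43e-08). IBH1, which opposes the PRE proteins, also rose: DN19220_c0_g2 had 31.4, 48.8 and 51.7 TPM in PF_D against 0.21, 1.28 and 0.72 TPM in PF_L (4.71, SE 0.29, adjusted p = 2.37e-06), and DN15833_c1_g5 had 9.93 to 14.2 TPM against 0.67 to 1.49 TPM (2.71, SE 0.24, adjusted p = 2.28e-05). PRE3 (DN11852_c0_g1), listed at 0, 0.05 and 0 TPM in PF_D, was lower there than in PF_Z, where it had 5.46, 9.33 and 2.08 TPM (-2.54, SE 0.52, adjusted p = 0.00571). Its call against PF_L (-1.58, SE 0.52, adjusted p = 0.038) was lost without PF_L replicate 2 or 3, PF_Z replicate 1 or any PF_D library.

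Of 86 tested sterol precursor unigenes, PF_D had 7 above and 17 below PF_L, which is 27.9% called against 25.1% of all tested unigenes, at a median of -0.11 against -0.12. Compared with PF_Z, 6 were higher and 19 lower in PF_D, which is 29.1% called against 18.0%. The KEGG number also takes in lipases and other proteins. SQE1 (DN26347_c0_g2), a squalene epoxidase at the entry to sterols, had 1.84, 0.48 and 3.84 TPM in PF_D against 66.5, 89.99 and 31.7 TPM in PF_Z (-4.42, SE 0.77, adjusted p = 0.00244). Further unigenes of that enzyme were called lower in that comparison, while DN15250_c0_g1 and DN23423_c1_g4 were not called. Smt1-1 (DN26526_c1_g1), a sterol methyltransferase, had 456, 475 and 424 TPM in PF_D against 224, 214 and 216 TPM in PF_L (1.05, SE 0.15, adjusted p = 0.000421).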

How the data were processed

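The authors assembled reads of 9 petal libraries de novo with Trinity, took the longest transcript per cluster as unigene and annotated it against protein and pathway databases. The deposited values are TPM, scaled by the authors for length and library total; the program that estimated them is not given in the sources used here. Named in the submitters' processing notes, with no role given, are StringTie 1.3.0, HISAT2 2.0, Bowtie 0.12.2 and, as build, mm8.

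Unigenes with at least 1 TPM in 3 libraries (47924, 95.3%) were tested in R 4.3.3 by limma 3.58.1 after the transform log2(TPM + 1) (1 mean per stage, empirical Bayes with a trend on abundance, Benjamini-Hochberg adjustment over all unigenes tested). The count-based test of the study cannot be run on TPM, but its limits were kept. The procedure was tested on simulated data. The paper lists the reads of each library, but read counts per unigene are unknown from TPM. The 70 unigenes, the lists and the rule for those named (every unigene with the pathway number, called unigenes averaging at least 5 TPM in a stage, raised to 10 TPM because over 40 qualified, and the most abundant of each role) were chosen with earlier results of these data known; further unigenes, SQE1, Smt1-1 and the other list examples among them, were named after their values were seen. Figures used matplotlib 3.10.9. The alternatives were 0.1 or 5 added to TPM, no filter or one of 5 TPM, median ratio or quantile scaling, 6 libraries only, no variance trend, an adjusted p limit of 0.01, a replicate block and the omission of each library in turn. RefSeq names could not be paired with the unigenes, and no sequences were used here.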

Additional observations from a re-analysis of the deposited data

How the results depend on the processing

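Of 39 calls among the 70 unigenes, 14 held under every alternative that could be run, 25 were lost under at least 1 and 0 reversed. Between PF_D and PF_L the count of 22 became 7 with 5 added to TPM and 11 with a filter of 5 TPM, which leaves 39 of the 70 unigenes, and 19 to 24 without single libraries. Between PF_Z and PF_L the count of 4 became 0 with 5 added to TPM (limma; 19 at an unadjusted p under 0.05), 2 at an adjusted p limit of 0.01, and 2 to 10 without single libraries; median ratio scaling gave 2 higher and 2 lower in place of 1 and 3. Between PF_D and PF_Z the count of 13 became 7 with 5 added, 8 at the stricter limit, and 9 to 14 without single libraries (7 higher and 7 lower without PF_Z replicate 3 or PF_D replicate 1). For the other pathway genes, the count of 9 between PF_Z and PF_L became 5 with 5 added, 5 with only the 6 libraries compared, 4 at the stricter limit, and 5 to 12 without single libraries (5 without PF_Z replicate 1, 5 without PF_Z replicate 2, 6 without PF_L replicate 1). Quantile normalization gave 19 higher and 20 lower of them between PF_D and PF_L, and 8 and 2 between PF_Z and PF_L. Libraries with the same replicate number did not deviate together (r from -0.0963 to 0.0432), so the values show no pairing by number. With 3 libraries per stage they cannot tell whether samples of the same number were collected together. A replicate block gave 23, 3 and 13 calls among the 70 unigenes and 40, 8 and 37 among the other genes, for PF_D against PF_L, PF_Z against PF_L and PF_D against PF_Z. The 3 replicates per stage and the missing read counts per unigene limit what could be called among unigenes at a few TPM.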
